A study of Homo sapiens with 18 samples.

Results

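The interleukin-1 (IL-1) family and its receptors were followed at the transcript level in senescent and control fibroblasts treated with N-myristoyltransferase inhibitors (NMTi). The set held 8 genes taken by symbol from a table of 28266 gene rows: the ligands IL1A, IL1B, IL33 and IL18, the antagonist IL1RN, and the receptor genes IL1R1, IL1RAP and IL1RL1. All 8 had a row, and 6 passed the filter on low counts, which IL1RL1 and IL18 did not. Poly(A) RNA came from IMR90 ER:RAS cells, an established line of human lung fibroblasts that carries oncogenic RAS fused to the hormone-binding part of the oestrogen receptor, so that 4-hydroxytamoxifen (4OHT) switches RAS on and the cells enter oncogene-induced senescence (OIS). The genotype is labelled WT in every group, and all 6 groups carried the ER:RAS fusion. Senescent cells had received 100 nM 4OHT and control cells DMSO. After 7 days of culture, each state was given either DMSO, IMP1088 at 300 nM or DDD86481 at 1.5 µM for a further 3 days and was collected on day 10, with 3 libraries in each of the 6 groups. IMP1088 and DDD86481 are inhibitors of the enzymes that attach myristate to the start of proteins, and the study used them to ask how senescent cells depend on that modification.

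IL-1α and IL-1β are the agonists of the family. Both bind the receptor IL1R1, which recruits the accessory protein IL1RAP and signals through MYD88 and IRAK kinases to NF-κB, while the antagonist encoded by IL1RN occupies IL1R1 without recruiting IL1RAP. IL-33 is a nuclear alarmin that signals through IL1RL1 together with IL1RAP, and pro-IL-18, like pro-IL-1β, is cut by caspase-1 before release. In OIS, IL-1α on the cell surface is known to act upstream of the senescence-associated secretory phenotype (SASP), the mixture of cytokines, chemokines and proteases that senescent cells release.

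On the RefSeq annotation of GRCh38.p14, IL1A (chr2:112773925-112784493, minus strand), IL1B (chr2:112829751-112836779, minus strand) and IL1RN (chr2:113099360-113134014, plus strand) lie in a cluster of 9 protein-coding ligand genes spanning 360.1 kb. IL1R1 (chr2:102070390-102179874) and IL1RL1 (chr2:102311563-102352356), both on the plus strand, lie in a second cluster of 6 receptor genes spanning 460.6 kb. IL1RAP (chr3:190514085-190659750, plus strand), IL33 (chr9:6215149-6257983, plus strand) and IL18 (chr11:112143260-112164094, minus strand) lie elsewhere. Promoter windows of 300 bases, 250 before to 50 after an annotated start, were given by RefSeq for 7 of the 8 genes, 15 windows in all, and IL18 had no entry. The AP-1 motif TGACTCA, on either strand, occurred in 3 of the 15 windows and in 4.9% of 35116 windows of all genes. The C/EBP motif TTGCNNAA occurred in 2 of the 15 and in 10.5% of all windows, and the NF-κB motif, searched by its consensus, in 0 of the 15 and in 5.9% of all. Overlapping windows of 1 gene share sequence, so these windows are not independent. A window that holds a match is printed for IL1A, IL1B and IL1RN because these 3 ligand genes differed most between the states. Capitals mark AP-1 matches in IL1A and IL1RN and the C/EBP match in IL1B, and each sequence reads 5′ to 3′ on the strand of its gene:
IL1A promoter (GRCh38.p14, chr2:112784444-112784743, minus strand): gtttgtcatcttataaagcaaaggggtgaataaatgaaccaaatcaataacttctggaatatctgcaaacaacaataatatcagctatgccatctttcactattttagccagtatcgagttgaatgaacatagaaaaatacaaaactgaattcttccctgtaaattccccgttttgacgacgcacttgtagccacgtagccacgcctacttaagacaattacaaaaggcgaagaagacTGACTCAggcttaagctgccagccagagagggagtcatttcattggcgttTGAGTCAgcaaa
IL1B promoter (GRCh38.p14, chr2:112836730-112837029, minus strand): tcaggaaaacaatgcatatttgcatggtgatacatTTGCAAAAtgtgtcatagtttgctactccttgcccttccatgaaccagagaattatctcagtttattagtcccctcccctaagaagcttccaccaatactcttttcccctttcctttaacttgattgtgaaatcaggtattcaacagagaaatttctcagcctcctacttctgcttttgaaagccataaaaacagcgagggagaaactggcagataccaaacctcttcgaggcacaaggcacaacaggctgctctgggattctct
IL1RN promoter (GRCh38.p14, chr2:113117721-113118020, plus strand): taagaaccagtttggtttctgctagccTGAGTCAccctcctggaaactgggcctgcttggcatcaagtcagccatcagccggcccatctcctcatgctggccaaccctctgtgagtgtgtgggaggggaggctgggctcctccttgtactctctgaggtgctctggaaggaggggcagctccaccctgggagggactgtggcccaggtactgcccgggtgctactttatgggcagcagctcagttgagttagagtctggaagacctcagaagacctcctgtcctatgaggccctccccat
Counted from the annotated start, where -1 is the base before it, the matches begin at positions -12 and 39 in IL1A, at -215 in IL1B and at -223 in IL1RN. A match is a string of letters only, and binding was not measured.

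Library totals ran from 16143716 to 23189950 counts. The level that 3 counts represent, the floor below which a count of 0 cannot be told from a low level, lay between 0.121 and 0.187 CPM, the count scaled to the size of the library, and covers counting error only, since reads without molecular identifiers are not independent molecules. Of the markers that check the labels, CDKN1A and CDKN2B, inhibitors of the cell cycle, were higher in senescent than control DMSO cells by 2.50 ± 0.11 and 3.10 ± 0.12 on the log2 scale, and LMNB1, lamin B1, fell by 3.69 ± 0.29. The list of 9 such checks also held CDKN2A, MKI67, HRAS, ESR1, NMT1 and NMT2, and NMTi moved some of its genes. In control cells 2 of 9 were higher and 4 lower with each inhibitor. Of all genes, 16.3% were higher and 17.4% lower there with IMP1088, and 17.8% and 18.7% with DDD86481. LMNB1 went from 27.2 CPM to 10.3 with IMP1088 and 11.1 with DDD86481 in control cells. In senescent cells 1 was higher with each, beside 20.6% of all genes with IMP1088 and 20.1% with DDD86481. Lower were 3 with IMP1088, beside 23.9%, and 4 with DDD86481, beside 23.1%. In senescent cells CDKN1A went from 2126 CPM to 1319 with IMP1088 and 1389 with DDD86481. All 12 fibroblast markers passed the filter. In senescent against control DMSO cells 9 were lower and 2 higher, beside 36% and 32.5% of all genes (median log2 fold change -1.14 against -0.051 over all genes tested). Their summed level was 30691 to 44791 CPM in control DMSO and 28693 to 31316 CPM in senescent DMSO libraries. It was 20080 to 22691 CPM in senescent libraries with IMP1088 and 20935 to 22637 CPM with DDD86481. With IMP1088, 8 of the 12 were lower than with DMSO and 2 higher, beside 23.9% and 20.6% of all genes (median -0.58 against -0.043). With DDD86481, 7 were lower and 2 higher, beside 23.1% and 20.1% (median -0.47 against -0.037). Of 8 leukocyte markers, CD3E and MS4A1 were at 0 in every library and PTPRC, the pan-leukocyte antigen, never exceeded 7 counts, while CD68 accounted for most of the list's summed level of 15.3 to 20.2 CPM in control DMSO and 120 to 151 CPM in senescent DMSO cells. The 4 endothelial markers summed to 1.09 to 1.89 CPM in control DMSO, to 24.6 to 33.9 CPM in senescent DMSO and to 11.2 to 20.4 CPM in senescent NMTi libraries, and the part of these 3 lists in the results was not tested. Control DMSO replicate 3 stood apart on the third principal component, with a score of 57.3 against 14.8 and 27.8, so member results that rest on it, and pathway values that lose their call or move by over 1.5 times without it, are given with and without it. In bulk RNA, fewer cells of a type and less RNA per cell cannot be told apart. The labels do not say whether replicates were separate cultures, so p-values measure only the spread between these libraries.

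The order of the family's transcripts differed between the states. In control DMSO cells the receptor IL1R1 was its most abundant transcript per length of exon, at 56 ± 11.2 CPM per kb (SD, n = 3), and every other gene of the set was below 1. IL1B at 0.493 ± 0.203, IL1RAP at 0.411 ± 0.103, IL33 at 0.213 ± 0.129 and IL1A at 0.141 ± 0.0714 CPM per kb followed, with libraries of neighbours in this order overlapping. In senescent DMSO cells IL1B led at 2206 ± 97.9 CPM per kb, which was rank 10 of 19719 genes with a length. IL1A at 103 ± 10.1, IL1R1 at 7.21 ± 1.22, IL33 at 1.88 ± 0.265, IL1RAP at 1.03 ± 0.138 and IL1RN at 0.66 ± 0.184 CPM per kb came next, and no library of one of these genes overlapped the next in the order. The order of the leading 4 was the same with either inhibitor in senescent cells, whereas IL1RN stood above IL1RAP with both, at 1.36 ± 0.104 against 0.749 ± 0.0449 CPM per kb with IMP1088 and at 1.29 ± 0.368 against 0.621 ± 0.0581 with DDD86481. This rests on annotated exon lengths of 3.734 kb for IL1RN and 11.21 kb for IL1RAP. In CPM, IL1RN stayed below IL1RAP, at 5.08 against 8.39 with IMP1088 and 4.81 against 6.96 with DDD86481.

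**Figure D1:**
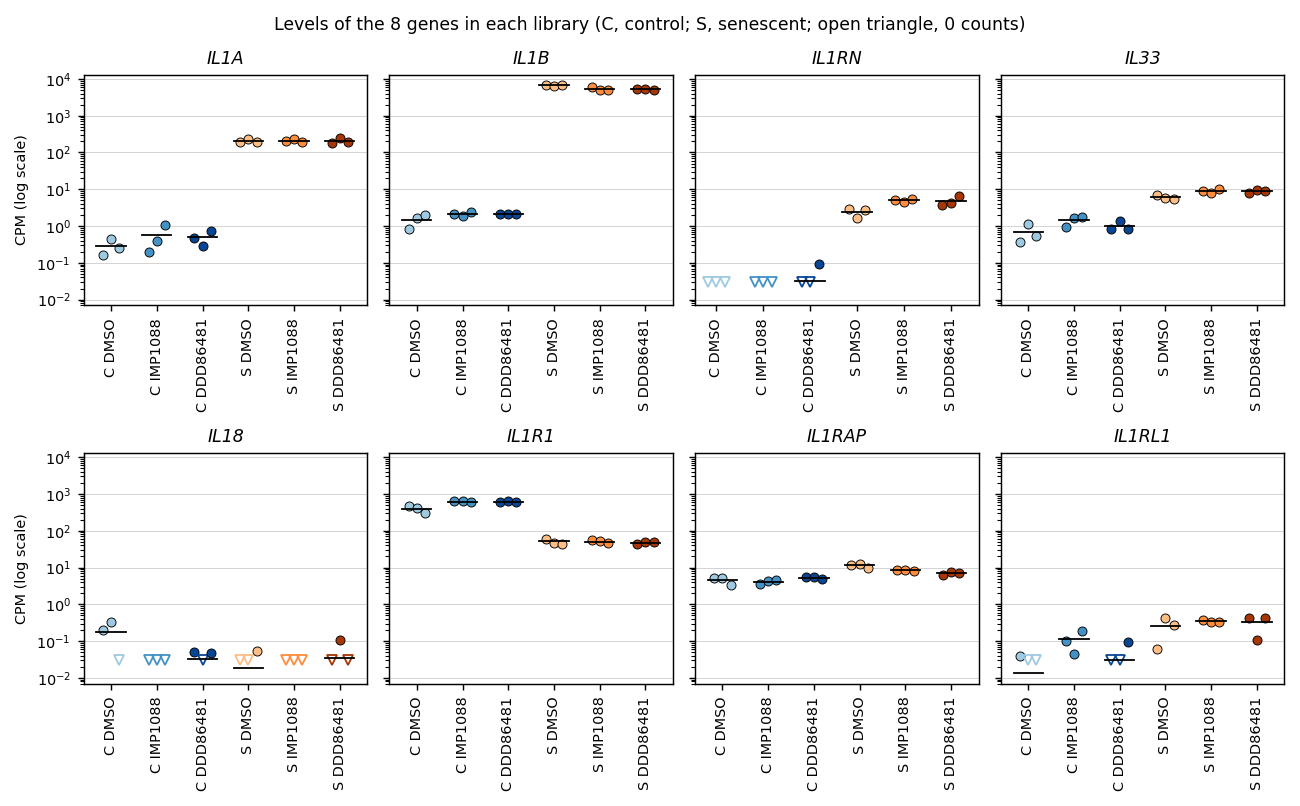
Each panel plots 1 gene of the set, with CPM on a log scale on the vertical axis and the 6 groups on the horizontal axis (C, control; S, senescent). Points are single libraries in replicate order, lines are group means and open triangles mark libraries with 0 counts. IL1A, IL1B, IL33 and IL1RN lie higher in senescent libraries and IL1R1 lies lower, while IL18 and IL1RL1 stay at 8 counts or fewer in every library.

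Senescent and control DMSO cells were compared first, to see how the family stood before NMTi. Of the 6 genes tested, IL1A, IL1B, IL1RN, IL33 and IL1RAP rose, beside 32.5% of the 14341 genes tested that were higher, and IL1R1 fell, beside 36% that were lower. The rises of IL1A and IL1RN were fixed by the filter on low counts, which these genes passed through their senescent libraries. The agonists had the largest fitted changes of the set. IL1B had 0.806, 1.65 and 1.99 CPM in the 3 control libraries and 6831, 6300 and 6786 CPM in the senescent ones. IL1A had 0.161, 0.443 and 0.249 CPM in control and 196, 232 and 197 CPM in senescent libraries. The groups were far apart for both genes, and the control libraries held only 4 to 11 counts of IL1A and 20 to 41 of IL1B. The log2 fold change was 12.15 ± 0.21 for IL1B (SE; adjusted p = 4.87e-20 by edgeR's quasi-likelihood test with Benjamini-Hochberg adjustment, as for all adjusted p-values given) and 9.47 ± 0.28 for IL1A (adjusted p = 1.25e-16).

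IL1RN, which encodes the receptor antagonist, was detected only in senescent cells among the DMSO groups. It had 0 counts in all 3 control DMSO libraries and 48, 27 and 50 counts in the senescent ones, so that it was at least 18.9-fold higher when 3 counts per library were taken as the control level (adjusted p = 3.02e-08). IL1RN passed the filter only through its senescent libraries, so the direction of this test was fixed by the filter. Against the agonists it remained scarce, with 27 to 50 counts beside 104917 to 127085 counts of IL1A and IL1B together in the same libraries. IL33, the nuclear alarmin, had 0.363, 1.17 and 0.547 CPM in control libraries and 7.10, 5.66 and 5.55 CPM in senescent ones. The groups did not overlap, and the log2 fold change was 3.11 ± 0.29 (adjusted p = 7.27e-09).

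The 2 chains of the IL-1 receptor moved in opposite directions. IL1R1, the signalling chain that binds the ligand, had 463, 425 and 309 CPM in control DMSO and 61.3, 47.8 and 45 CPM in senescent DMSO libraries. It fell by 2.96 ± 0.14 on the log2 scale (adjusted p = 1.43e-13), and by 3.11 without control DMSO replicate 3, its lowest control library. IL1RAP, the accessory chain, had 5.36, 5.19 and 3.28 CPM in control and 12.0, 12.8 and 9.78 CPM in senescent libraries. It rose by 1.31 ± 0.17 (adjusted p = 6.83e-07), and by 1.12 without control DMSO replicate 3. In both genes the 2 groups were separate in every library.

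IL18 and IL1RL1 were close to the floor. IL18, a ligand that caspase-1 matures, had 5, 8 and 0 counts in control DMSO libraries and 0, 0 and 1 in senescent DMSO libraries, and no other library held more than 2. IL1RL1, the receptor of IL-33, had 1, 0 and 0 counts in control DMSO and 1, 7 and 5 in senescent DMSO libraries, with 2 to 8 counts in senescent NMTi libraries. In a test without the filter IL1RL1 was higher in senescent DMSO cells (adjusted p = 0.00406) and IL18 did not pass the threshold (adjusted p = 0.0773). About 1.65% of the exonic bases of IL1RL1 are shared with its neighbour IL18R1 on the same strand.

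NMTi left the order of the agonists in place in senescent cells and shifted single members by small amounts. With IMP1088, IL1RN and IL33 rose, beside 20.6% of genes higher, and IL1B and IL1RAP fell, beside 23.9% lower. With DDD86481, IL1RN rose, beside 20.1% higher, and IL1B and IL1RAP fell, beside 23.1% lower. The doses of the inhibitors differed, so their values are given side by side and were not compared with each other.

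IL1B stayed among the most abundant transcripts of the cells. It had 5906, 5096 and 4945 CPM with IMP1088 and 5218, 5208 and 5127 CPM with DDD86481, against 6300 to 6831 CPM with DMSO. Every NMTi library was below every DMSO library, by 0.32 ± 0.12 on the log2 scale in the mean for IMP1088 (log2 fold change -0.32, adjusted p = 0.0409) and by 0.36 ± 0.12 for DDD86481 (log2 fold change -0.36, adjusted p = 0.0248). Neither call was robust to leaving out 1 library. For IMP1088 the adjusted p was between 0.0541 and 0.15 without any one of the libraries other than senescent IMP1088 replicate 1, with log2 fold changes of -0.36 to -0.27. For DDD86481 the call was lost without senescent DMSO replicate 1 (0.076), senescent DMSO replicate 3 (0.0672), senescent DDD86481 replicate 2 (0.0577) or senescent DDD86481 replicate 3 (0.0581), at log2 fold changes of -0.36 to -0.33.

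IL1A, the agonist that acts upstream in OIS, had 204, 227 and 196 CPM with IMP1088 and 177, 243 and 195 CPM with DDD86481, against 196, 232 and 197 CPM with DMSO. The groups overlapped throughout. The log2 fold change was 0.005 ± 0.16 with IMP1088 (95% interval -0.33 to 0.34, adjusted p = 0.986) and -0.021 ± 0.16 with DDD86481 (95% interval -0.36 to 0.31, adjusted p = 0.93).

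The antagonist moved the other way. IL1RN had 99, 83 and 96 counts with IMP1088 and 70, 81 and 104 counts with DDD86481, against 48, 27 and 50 with DMSO, which came to 5.08 ± 0.388, 4.81 ± 1.37 and 2.46 ± 0.687 CPM (SD, n = 3 each). All NMTi libraries lay above all DMSO libraries. The log2 fold change was 1.04 ± 0.27 with IMP1088 (adjusted p = 0.00498) and 0.95 ± 0.27 with DDD86481 (adjusted p = 0.00944). The call for DDD86481 was lost without senescent DMSO replicate 2 (0.75, adjusted p = 0.0528) and without senescent DDD86481 replicate 3 (0.70, adjusted p = 0.058).

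IL33 had 8.95, 7.88 and 10.1 CPM with IMP1088 and 7.92, 9.35 and 8.95 CPM with DDD86481, against 7.10, 5.66 and 5.55 CPM with DMSO. Again no NMTi library was as low as a DMSO library. The log2 fold change of 0.56 ± 0.22 with IMP1088 passed the threshold (adjusted p = 0.0468) and that of 0.52 ± 0.22 with DDD86481 did not (adjusted p = 0.065). The call for IMP1088 was lost in 4 of 6 fits that left out 1 library, those without senescent DMSO replicate 2 (adjusted p = 0.129) or 3 (adjusted p = 0.143) and without senescent IMP1088 replicate 1 (adjusted p = 0.0908) or 3 (adjusted p = 0.157), at log2 fold changes between 0.46 and 0.56.

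Of the receptor chains, IL1RAP fell and IL1R1 did not pass the test. IL1RAP had 8.84, 8.50 and 7.85 CPM with IMP1088 and 6.22, 7.47 and 7.17 CPM with DDD86481, against 12.0, 12.8 and 9.78 CPM with DMSO. Each NMTi group was wholly below the DMSO group. It fell by 0.45 ± 0.16 on the log2 scale with IMP1088 (log2 fold change -0.45, adjusted p = 0.0274) and by 0.72 ± 0.16 with DDD86481 (log2 fold change -0.72, adjusted p = 0.00125). The call for IMP1088 was lost without senescent DMSO replicate 1 (adjusted p = 0.0792) or 2 (adjusted p = 0.114) and without senescent IMP1088 replicate 2 (adjusted p = 0.0595) or 3 (adjusted p = 0.0933), at log2 fold changes of -0.46 to -0.37, whereas that for DDD86481 held in all 6 such fits. IL1R1 had 54.6, 51.8 and 45.6 CPM with IMP1088 and 42.6, 49.3 and 50.5 CPM with DDD86481, within or near the range of 45 to 61.3 CPM with DMSO. Its log2 fold change was -0.02 ± 0.13 with IMP1088 (95% interval -0.30 to 0.26, adjusted p = 0.922) and -0.11 ± 0.13 with DDD86481 (95% interval -0.39 to 0.17, adjusted p = 0.52).

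**Figure D2:**
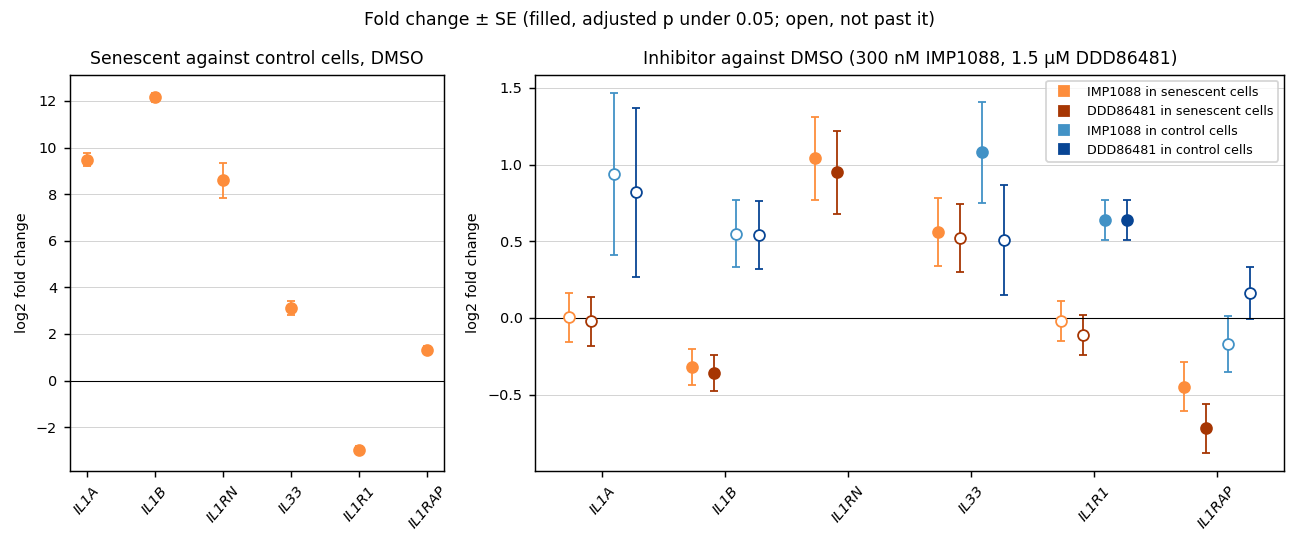
Log2 fold changes ± SE of the 6 genes tested are plotted for senescent against control DMSO cells (left) and for each inhibitor against DMSO in senescent and control cells (right), with filled points past the threshold and open points not past it. On the right, IL1RN lies near 1 and IL1A near 0 for both inhibitors in senescent cells, and IL1R1 is at 0.64 for both in control cells. The left point of IL1RN depends on the prior count, as its control libraries were at 0, and it is not plotted for control cells on the right, where its libraries were at or under the floor.

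Ratios within a library do not depend on its depth, and they show how agonists and antagonist stood to each other. There were 34.9, 27.2 and 34.5 IL1B counts for each IL1A count in senescent DMSO libraries, 29.0, 22.4 and 25.3 with IMP1088, and 29.5, 21.4 and 26.3 with DDD86481. These groups overlapped, and the ratio was 1.26-fold lower with IMP1088 and 1.25-fold lower with DDD86481 (p = 0.2 for each, exact two-sided permutation test of the mean log2 ratio, 3 against 3). For each 1000 counts of IL1A and IL1B together, there were 0.422, 0.257 and 0.393 counts of IL1RN with DMSO, 0.853, 0.871 and 1.05 with IMP1088, and 0.708, 0.776 and 1.20 with DDD86481. Every NMTi library exceeded every DMSO library, and the mean ratio was 2.63-fold higher with IMP1088 and 2.49-fold higher with DDD86481. The exact permutation p was 0.1 for each, the smallest that 3 against 3 can give, so this design could not reach 0.05. The 2 inhibitors and 2 ratios made 4 such tests, all against the same DMSO libraries.

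**Figure D3:**
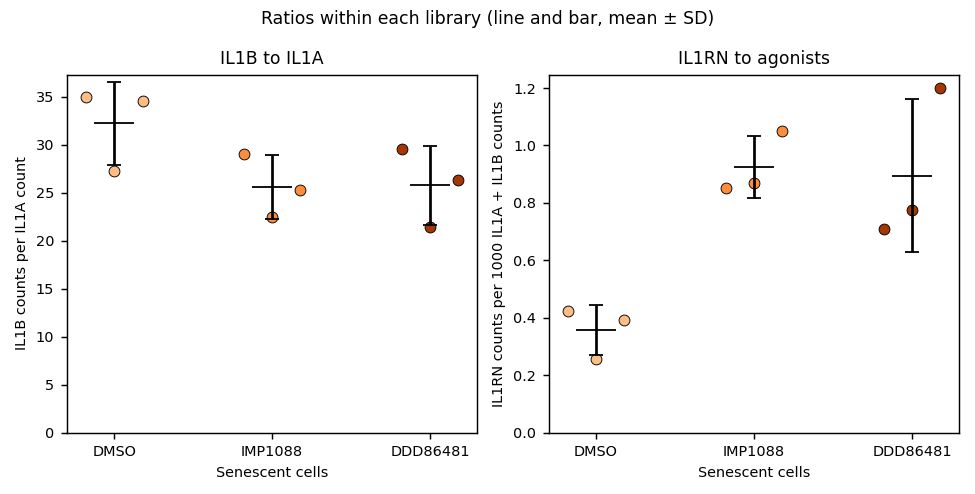
The left panel plots IL1B counts per IL1A count and the right panel IL1RN counts per 1000 counts of IL1A and IL1B, for senescent libraries with DMSO, IMP1088 or DDD86481. Points are libraries, horizontal lines are means and bars are SDs (n = 3). On the left the groups overlap, and on the right the DMSO libraries end at 0.422 and the NMTi libraries begin at 0.708.

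In control cells the receptor was the member that changed with both inhibitors. With IMP1088, IL1R1 and IL33 rose, beside 16.3% of genes higher, and no member fell, beside 17.4% lower. With DDD86481, IL1R1 rose, beside 17.8% higher, and no member fell, beside 18.7% lower. IL1R1 had 628, 647 and 589 CPM with IMP1088 and 625, 633 and 605 CPM with DDD86481, against 463, 425 and 309 CPM with DMSO. All NMTi libraries were above all DMSO libraries, with the DMSO libraries spread most widely. The log2 fold change was 0.64 ± 0.13 for each inhibitor (adjusted p = 0.000718 for IMP1088 and 0.000691 for DDD86481 by edgeR), and 0.49 for each without control DMSO replicate 3 (adjusted p = 0.00154 and 0.00161).

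The ligands stayed low in control cells whatever the treatment. IL33 had 19, 38 and 37 counts with IMP1088 and 16, 24 and 18 with DDD86481, against 9, 29 and 11 with DMSO. The groups overlapped, and the log2 fold change was 1.08 ± 0.33 with IMP1088 (adjusted p = 0.0172) and 0.51 ± 0.36 with DDD86481 (adjusted p = 0.289). The call for IMP1088 was lost without control DMSO replicate 1 (0.75, adjusted p = 0.0743) or 3 (0.95, adjusted p = 0.0527) and without control IMP1088 replicate 2 (0.98, adjusted p = 0.0645) or 3 (0.94, adjusted p = 0.0722). Without control DMSO replicate 2 the values were 1.73 with IMP1088 (adjusted p = 0.00124) and 1.15 with DDD86481 (adjusted p = 0.027). IL1B had 42, 42 and 50 counts with IMP1088 and 41, 37 and 46 with DDD86481, against 20, 41 and 40 with DMSO. Its log2 fold change missed the threshold at 0.55 ± 0.22 with IMP1088 (adjusted p = 0.0605) and at 0.54 ± 0.22 with DDD86481 (adjusted p = 0.0625), and passed it without control DMSO replicate 3, at 0.79 for each (adjusted p = 0.0122 and 0.0137). IL1A had 4, 9 and 22 counts with IMP1088 and 9, 5 and 16 with DDD86481, which overlapped the 4, 11 and 5 with DMSO (adjusted p = 0.178 and 0.249). IL1RAP overlapped between groups as well, at 3.56 to 4.52 CPM with IMP1088, 4.77 to 5.43 CPM with DDD86481 and 3.28 to 5.36 CPM with DMSO (adjusted p = 0.492 and 0.501). IL1RN was at 0 counts in every control library except control DDD86481 replicate 3, which held 2.

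The interaction term asked whether the effect of an inhibitor differed between senescent and control cells. For IMP1088, IL1B and IL1R1 passed the threshold, beside 26.2% of all genes, and for DDD86481, IL1B, IL1R1 and IL1RAP did so, beside 30.3%. In each case the effect was lower in senescent cells. For IL1B the difference of log2 fold changes was -0.87 ± 0.25 with IMP1088 (adjusted p = 0.0158) and -0.90 ± 0.25 with DDD86481 (adjusted p = 0.0125), where the control libraries held only 20 to 50 counts. For IL1R1 it was -0.66 ± 0.18 (adjusted p = 0.0129) and -0.75 ± 0.19 (adjusted p = 0.0052), and -0.51 and -0.60 without control DMSO replicate 3. For IL1RAP it was -0.88 ± 0.24 with DDD86481 (adjusted p = 0.00941) and -0.29 ± 0.24 with IMP1088 (adjusted p = 0.395), and -0.70 and -0.10 without that replicate. With IMP1088, the call of IL1B was lost without control IMP1088 replicate 3 (-0.74, adjusted p = 0.058) and that of IL1R1 without senescent DMSO replicate 1 (-0.51, adjusted p = 0.0523). IL1B without control DMSO replicate 1 was at -0.56 with IMP1088 and -0.59 with DDD86481, both past the threshold.

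Among 6 other IL-1 family ligands, all in the ligand cluster, IL36RN, the antagonist of the IL-36 receptor, and IL36B, one of its agonists, passed the filter, and did so only through their senescent libraries, so that a rise with senescence was fixed by the filter. Every control DMSO library held 0 counts of IL36RN and at most 1 of IL36B, against 150 to 249 and 58 to 67 counts in senescent DMSO libraries, so that IL36RN was at least 88.6-fold higher (adjusted p = 3.93e-13) and IL36B at least 28-fold (adjusted p = 7.86e-08). IL36RN rose further with both inhibitors in senescent cells, to 477 to 519 counts with IMP1088 (log2 fold change 1.26 ± 0.16, adjusted p = 6.13e-06) and 507 to 646 with DDD86481 (1.51 ± 0.16, adjusted p = 7.88e-07). IL36B rose with IMP1088 (0.96 ± 0.30, adjusted p = 0.0152), a call lost without senescent DMSO replicate 3 (0.87, adjusted p = 0.0645), and had 48 to 137 counts with DDD86481. The other 4 ligands of the cluster, IL37, IL36G, IL36A and IL1F10, held at most 7 counts in any library.

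Of 8 other receptor genes, 5 were tested. In senescent DMSO cells IL1RAPL1, a relative of the accessory chain, rose by 3.85 ± 0.14 over control DMSO cells (adjusted p = 2.5e-15). IL1RL2, the IL-36 receptor, rose by 0.98 ± 0.36 (adjusted p = 0.0218), on 5 to 19 counts a library, a call lost without control DMSO replicate 2 (0.90, adjusted p = 0.0681) or 3 (0.71, adjusted p = 0.0964) and without senescent DMSO replicate 1 (0.89, adjusted p = 0.0707) or 3 (0.88, adjusted p = 0.0749). IL18BP, the secreted decoy for IL-18, fell by 3.51 ± 0.30 (adjusted p = 2.05e-09), and IL18R1, the IL-18 receptor next to IL1RL1, fell by 2.44 ± 0.22 (adjusted p = 3.8e-09). Within the receptor cluster, IL1R1 and IL18R1 were thus lower with senescence, while the rise of IL1RL2 was lost in 4 of 6 fits that left out 1 library. The cluster's other genes did not pass the filter. Over all control and all senescent libraries, IL1R2 totalled 42 and 8 counts, IL18RAP 46 and 1, and IL1RL1 10 and 49. With NMTi in senescent cells IL18R1 fell by a further 0.90 ± 0.30 with IMP1088 (adjusted p = 0.0203) and 1.01 ± 0.31 with DDD86481 (adjusted p = 0.0121), on 8 to 22 counts a library. The call for IMP1088 was lost without senescent DMSO replicate 1 (-0.76) and without senescent IMP1088 replicate 2 (-0.73) or 3 (-0.85), and that for DDD86481 without senescent DMSO replicate 1 (-0.86) or senescent DDD86481 replicate 2 (-0.89). In control cells SIGIRR, an inhibitory member of the receptor family, fell by 0.67 ± 0.16 with IMP1088 (adjusted p = 0.0038) and by 0.89 ± 0.17 with DDD86481 (adjusted p = 0.000377). Without control DMSO replicate 3, SIGIRR was at -0.41 with IMP1088 (adjusted p = 0.03) and at -0.64 with DDD86481. IL1RAPL1 rose by 0.60 ± 0.16 with IMP1088 in control cells (adjusted p = 0.00647).

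Of 22 genes listed for the maturation and release of IL-1, whether they promote or restrain it, 17 were tested. In senescent DMSO cells 9 were higher and 7 lower, beside 32.5% and 36% of all genes, with a median log2 fold change of 0.21 against -0.051 over all genes tested. CASP1, the protease that matures IL-1β and IL-18, went from 54.1 ± 2.28 to 4.63 ± 0.803 CPM and fell by 3.55 ± 0.13 (adjusted p = 4.83e-15), and CARD16, a CARD-only relative of caspase-1, fell by 2.13 ± 0.16 (adjusted p = 3.55e-10). PANX1, a membrane channel, rose by 1.34 ± 0.11 (adjusted p = 9.16e-10), and the sensor NLRP3 rose by 1.92 ± 0.63 (adjusted p = 0.0111) on at most 16 counts a library, a value of 3.00 without control DMSO replicate 2. NLRP3 passed the filter only through its senescent libraries. Its rise, which counts among the 9 and enters the median, was thus fixed by the filter. With IMP1088 in senescent cells 4 were higher and 7 lower, beside 20.6% and 23.9% of all genes (median -0.27 against -0.043). With DDD86481 5 were higher and 9 lower, beside 20.1% and 23.1% (median -0.35 against -0.037). PYCARD, the adaptor ASC that joins sensors to caspase-1, had 7.78 ± 1.09 CPM with DMSO, 2.09 ± 0.307 with IMP1088 and 2.28 ± 0.768 with DDD86481, and fell by 1.90 ± 0.24 with IMP1088 (adjusted p = 2.71e-06) and by 1.76 ± 0.24 with DDD86481 (adjusted p = 5.98e-06). The sensor NLRP1 rose by 1.27 ± 0.15 with IMP1088 (adjusted p = 1.55e-06) and by 1.28 ± 0.15 with DDD86481 (adjusted p = 1.52e-06), and CASP1 by 0.88 ± 0.14 (adjusted p = 3.98e-05) and 0.70 ± 0.14 (adjusted p = 0.000538). TXNIP fell by 0.75 ± 0.23 with IMP1088 (adjusted p = 0.0121), a call lost without senescent DMSO replicate 1 (-0.63, adjusted p = 0.0605) or senescent IMP1088 replicate 3 (-0.59, adjusted p = 0.0743), and NLRP3 fell by 2.52 ± 0.74 with DDD86481 (adjusted p = 0.00897), to 0 to 6 counts a library, and was at -4.46 without senescent DDD86481 replicate 2. The senescent DMSO libraries, at 9 to 16 counts, were the main ones through which NLRP3 passed the filter, so a fall from them was favoured by it.

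In control cells 2 of these 17 genes were higher and 8 lower with each inhibitor, beside 16.3% and 17.4% of all genes for IMP1088 and 17.8% and 18.7% for DDD86481, with medians of -0.16 for IMP1088 and -0.19 for DDD86481 against -0.001 and 0 over all genes. The receptor channel P2RX7 rose by 0.89 ± 0.21 with IMP1088 (adjusted p = 0.0027) and by 1.06 ± 0.21 with DDD86481 (adjusted p = 0.000563), and NLRP1 by 0.51 ± 0.16 (adjusted p = 0.0206) and 0.67 ± 0.16 (adjusted p = 0.00346), where the first was lost without control DMSO replicate 3 (0.34, adjusted p = 0.0989) or control IMP1088 replicate 1 (0.42, adjusted p = 0.102). CAPN2, a calpain, a class of protease that cuts pro-IL-1α, fell by 1.06 ± 0.078 with IMP1088 (adjusted p = 6.88e-09) and by 1.00 ± 0.078 with DDD86481 (adjusted p = 1.39e-08), and PYCARD by 0.80 ± 0.19 (adjusted p = 0.00275) and 0.95 ± 0.19 (adjusted p = 0.000684). Without control DMSO replicate 3, PYCARD was at -0.51 with IMP1088 (adjusted p = 0.0177) and at -0.66 with DDD86481.

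All 18 genes of signalling next to the receptor were tested. In senescent DMSO cells 7 were higher and 4 lower, beside 32.5% and 36% of all genes (median 0.26 against -0.051). IRAK2, a kinase of the receptor complex, rose by 3.21 ± 0.15 (adjusted p = 8.52e-14) and PELI1, an E3 ligase that acts on IRAKs, by 1.89 ± 0.14 (adjusted p = 1.74e-10), while IRAK4, the kinase that activates the complex, fell by 1.52 ± 0.12 (adjusted p = 4.47e-10) and PELI2 by 0.89 ± 0.14 (adjusted p = 1.64e-05). With each inhibitor in senescent cells 5 were higher and 3 lower, beside 20.6% and 23.9% of all genes for IMP1088 and 20.1% and 23.1% for DDD86481, so that these counts lay near those of all genes (medians -0.05 and -0.08). IRAK3, the IRAK relative that restrains the complex, rose by 2.33 ± 0.20 with IMP1088 (adjusted p = 2.57e-08) and 2.29 ± 0.20 with DDD86481 (adjusted p = 3.52e-08). MYD88, the adaptor of IL1R1, fell by 0.84 ± 0.11 with IMP1088 (adjusted p = 5.65e-06) and by 0.85 ± 0.11 with DDD86481 (adjusted p = 5.03e-06), and PELI1 by 0.40 ± 0.13 (adjusted p = 0.0169) and 0.43 ± 0.13 (adjusted p = 0.0114), the last lost without senescent IMP1088 replicate 1 (-0.38) or 2 (-0.36) and, for DDD86481, without senescent DDD86481 replicate 2 (-0.35). PELI3 rose by 0.54 ± 0.13 with IMP1088 (adjusted p = 0.00173) and IRAK2 by 0.59 ± 0.13 with DDD86481 (adjusted p = 0.000904). In control cells IRAK3 rose as well, by 1.53 ± 0.22 (adjusted p = 1.97e-05) and 1.66 ± 0.22 (adjusted p = 8.75e-06), and PELI2 by 0.64 ± 0.13 (adjusted p = 0.000954) and 0.71 ± 0.13 (adjusted p = 0.000354). UBE2N, a ubiquitin-conjugating enzyme that works with TRAF6, fell by 0.51 ± 0.080 with IMP1088 (adjusted p = 6.47e-05) and by 0.55 ± 0.080 with DDD86481 (adjusted p = 3.08e-05). IRAK4 fell by 0.33 ± 0.11 with IMP1088 (adjusted p = 0.0258), a call lost without control DMSO replicate 2 (-0.27) or without control IMP1088 replicate 1 (-0.36), 2 (-0.35) or 3 (-0.27). It fell by 0.36 ± 0.11 with DDD86481 (adjusted p = 0.0163), a call lost without control DMSO replicate 2 (-0.30) or without control DDD86481 replicate 1 (-0.34) or 3 (-0.30). In all, 3 of the 18 were higher and 2 lower with IMP1088 in control cells, beside 16.3% and 17.4% of all genes. With DDD86481 4 were higher and 2 lower, beside 17.8% and 18.7%. These counts lay near those of all genes.

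Genes listed as IL-1 responses of fibroblasts, a list that also held CEBPB and GATA4, were nearly all higher in senescent cells. Whether IL-1 induced them was not tested. Of 24 in the list 23 were tested, and 22 rose and 1 fell with senescence, beside 32.5% and 36% of all genes (median log2 fold change 4.15 against -0.051). CSF3 and CSF2, colony-stimulating factors, had 0 to 3 counts in control DMSO libraries, so that CSF3 was at least 2060-fold higher and CSF2 at least 2007-fold. Both, with at most 3 counts in any control library, and CCL20, with at most 11, passed the filter only through their senescent libraries. Their rises, which count among the 22 and enter the median, were thus fixed by the filter. CCL2, a monocyte chemokine, fell by 1.84 ± 0.37 (adjusted p = 0.000205). In senescent cells with IMP1088, 6 of the 23 were higher and 4 lower, beside 20.6% and 23.9% of all genes (median 0.06 against -0.043). With DDD86481, 9 were higher and 4 lower, beside 20.1% and 23.1% (median 0.11 against -0.037). The chemokine CCL20 rose by 2.27 ± 0.19 with IMP1088 (adjusted p = 1.71e-08) and by 2.45 ± 0.19 with DDD86481 (adjusted p = 8.33e-09), and CXCL2 by 1.77 ± 0.12 (adjusted p = 1.26e-09) and 2.09 ± 0.12 (adjusted p = 1.87e-10). CCL2 fell by a further 2.31 ± 0.41 with IMP1088 (adjusted p = 0.000134) and by 1.79 ± 0.40 with DDD86481 (adjusted p = 0.00116), and CXCL6 by 1.27 ± 0.20 (adjusted p = 2.78e-05) and 1.12 ± 0.20 (adjusted p = 0.000114). In control cells IMP1088 gave 9 higher and 5 lower genes, beside 16.3% and 17.4% of all genes, and DDD86481 gave 11 and 4, beside 17.8% and 18.7%. PTGS2, the inducible cyclooxygenase, rose by 1.96 ± 0.25 with IMP1088 and 2.22 ± 0.24 with DDD86481, and CXCL2 by 1.38 ± 0.25 and 1.65 ± 0.24. BIRC3, an inhibitor of apoptosis, fell by 1.30 ± 0.25 with IMP1088 and 1.35 ± 0.25 with DDD86481. CCL2 fell by 1.12 ± 0.36 with IMP1088 (adjusted p = 0.0226), a call lost without control DMSO replicate 3 (-0.72), control IMP1088 replicate 1 (-0.91) or control IMP1088 replicate 2 (-0.98). The cytokine IL6 fell by 1.18 ± 0.30 with DDD86481 (adjusted p = 0.00462), and was at -0.76 without control DMSO replicate 3 (adjusted p = 0.0347).

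**Figure D4:**
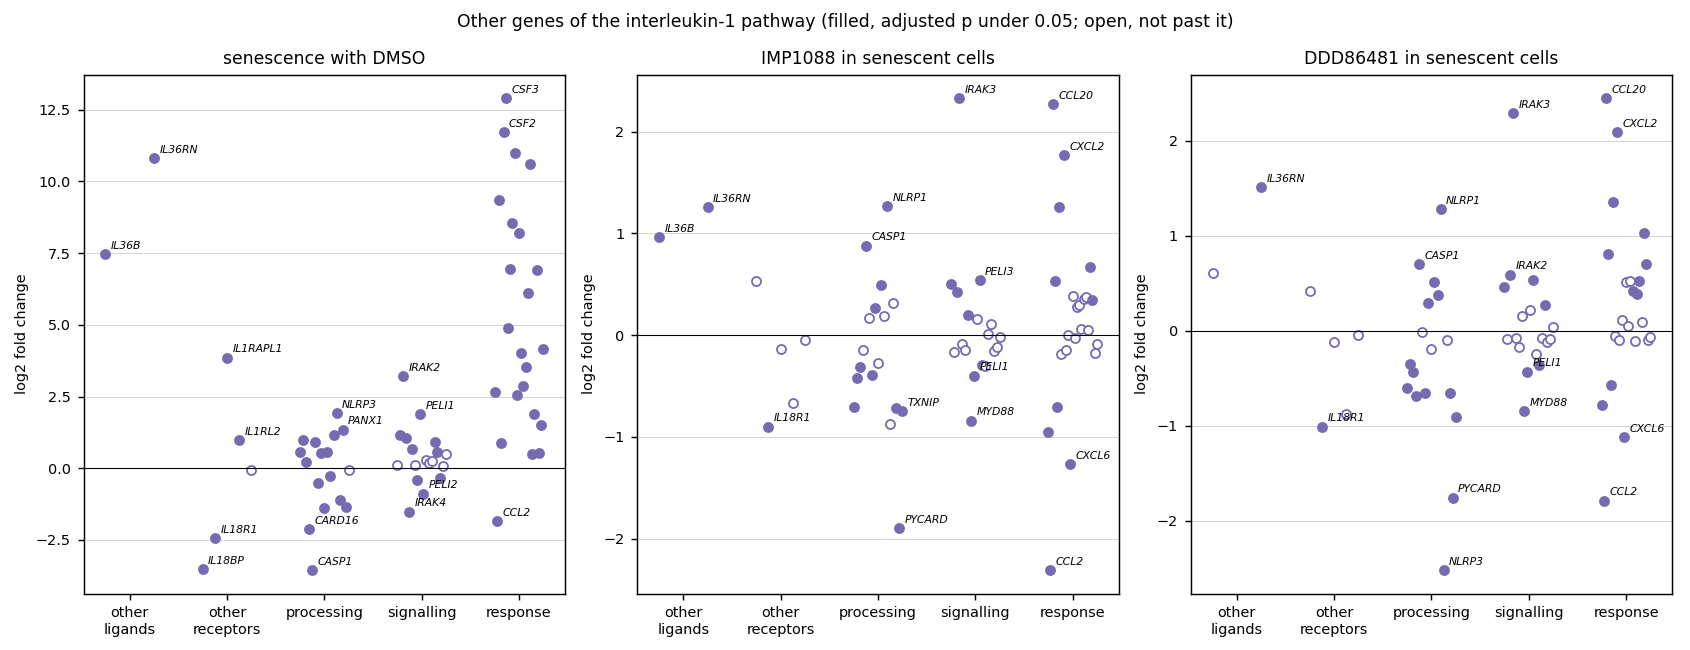
Log2 fold changes of the tested genes of 5 pathway lists are plotted for senescence with DMSO and for each inhibitor in senescent cells, with filled points past the threshold and open points not past it. The response list lies almost wholly above 0 with senescence, and IRAK3, NLRP1 and CCL20 stand high and PYCARD, MYD88 and CCL2 low with both inhibitors. The vertical scales differ between panels, and the senescence points of IL36RN, IL36B, CSF3 and CSF2 depend on the prior count.

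The genes whose log2 CPM followed a member most closely over the 18 libraries are given as a description, since the libraries share 2 states and 6 groups and are not independent points. IL1B was most like CXCL5 (r = 0.999), MMP12 (0.998) and SERPINA9 (0.998), and IL1A most like ZC3H12A (0.998), LCE1F (0.997) and CXCL5 (0.997). IL1RN was most like MAST1 (0.995), LINC02392 (0.995) and LINC02056 (0.994), and IL33 most like GPAT3 (0.982), RELL2 (0.981) and BCL2A1 (0.979). Of the receptor genes, IL1R1 was most like TRO (0.997), MATN2 (0.996) and EPAS1 (0.996), and IL1RAP, with the weakest likeness, most like KDM1B (0.961), EPB41L1 (0.958) and AFAP1L2 (0.953).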

How the data were processed

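Per the labels, the samples were 18 libraries in 6 groups of 3. The deposited values were raw counts of reads, 1 row for each gene symbol. The study's methods describe directional poly(A) libraries aligned to hg19 with TopHat and Ensembl annotation, whereas the submitters' processing notes name hg38, DRAGEN, STAR 2.7.8a and DESeq2 1.32.0. The study lists HTSeq and a first-strand option for TopHat, but which pipeline made this table, and the strand setting of its counting, were not given in the sources used here, so counts of overlapping genes are uncertain. Of the 28266 rows, 95.5% matched a RefSeq symbol. Positions and promoters came from RefSeq on GRCh38.p14, and exon lengths from GENCODE, without coordinates.

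The members, lists and tests were chosen with earlier results of these data known. With TMM scaling, edgeR 4.0.16 (quasi-likelihood test, R 4.3.3) fitted the 6 groups together on the 14341 genes that filterByExpr kept, with Benjamini-Hochberg adjustment over them and a threshold of 0.05. The script was tested on simulated data. SEs came from the F statistic. Fold changes used the default prior count of edgeR's fit, and log2 CPM, for correlations and principal components, used a prior count of 2. Ratios of raw counts were compared by exact two-sided permutation tests (SciPy 1.17.1). Named were the 8 members, the 3 genes most correlated with each tested member, the 2 largest rises and falls past the threshold in each pathway list and comparison, and genes at the 2 clusters. Where both groups were at or under the floor of 3 counts, no fold change is given. Alternatives were DESeq2 size factors, upper quartile scaling, the Wald test of DESeq2 1.42.0, no filter, only the groups compared, the replicate number as a block, a 2-fold threshold, a pseudocount of 0.5 counts for ratios, and leaving out each library. No library was a copy of another in its group (lowest chi-square per gene 5.09). Libraries that share a number deviated together, with a correlation above 0.1 in every pair for IMP1088 in control cells (r = 0.394, 0.123 and 0.231) and were taken to pair them, from the correlations alone. In each other comparison at least 1 pair was under 0.1. The main fit did not use this pairing, and the replicate number as a block was run as an alternative only.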

Additional observations from a re-analysis of the deposited data

Results flagged for a closer look

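The effect of NMTi differed between senescent and control cells by the interaction term of edgeR's fit for 3 members. The difference of log2 fold changes, senescent minus control, was -0.87 for IL1B and -0.66 for IL1R1 with IMP1088. With DDD86481 it was -0.90 for IL1B, -0.75 for IL1R1 and -0.88 for IL1RAP. The control libraries held 20 to 50 counts of IL1B.

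Among other receptor genes it was -1.18 for IL18R1 and -0.73 for IL1RAPL1 with IMP1088, and -1.21 for IL18R1 and 0.84 for SIGIRR with DDD86481. Among genes of maturation and release, the differences with IMP1088 were 0.99 for GSDME, 0.85 for NEK7, -1.10 for PYCARD and -0.96 for TXNIP. With DDD86481 they were 1.07 for GSDME, 0.96 for NEK7, -3.48 for NLRP3, on at most 16 counts a library, and -1.15 for P2RX7. NLRP3 passed the filter only through senescent libraries, mainly those with DMSO, so a negative difference was favoured by the filter. Among signalling genes they were 0.60 for ECSIT, 0.39 for UBE2N, -0.70 for PELI1 and -0.61 for MYD88 with IMP1088, and 0.54, 0.46, -0.61 and -0.71 with DDD86481. Among response genes they were 1.38 for IL6, 1.03 for MMP1, -1.30 for CXCL3 and -1.29 for PTGS2 with IMP1088, and 1.69, 0.83, -1.62 and -1.20 with DDD86481.

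With 1 library left out, some of these lost the threshold. With IMP1088 this held for TXNIP in 8 of 12 fits, IL18R1 in 2, and ECSIT, PELI1, IL1B and IL1R1 in 1 each. With DDD86481 it held for ECSIT and PELI1 in 4 of 12 fits, P2RX7 in 3 and IL18R1 in 1. For DDD86481, NLRP3 was at -5.43 without senescent DDD86481 replicate 2 and PTGS2 at -0.77 without control DDD86481 replicate 1.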

How the results depend on the processing

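All 6 tested members stayed past the threshold for senescence under every alternative run, and DESeq2 and the test without a filter each called 7. The rises of IL1A and IL1RN among these were fixed by the filter in the fits that used it, so there they add no support. A further requirement of a 2-fold change left 1 member with IMP1088 in senescent cells, 0 with DDD86481 in senescent cells, 1 with IMP1088 in control cells, 0 with DDD86481 in control cells and 0 in each interaction, because most of these changes were under 2-fold. Without a filter the counts were 4 with IMP1088 and 2 with DDD86481 in control cells. These added IL1B for both and, for IMP1088, IL18 (adjusted p = 0.0196). DESeq2 gave 2 with DDD86481 in control cells, again with IL1B (adjusted p = 0.034), which it also called for IMP1088 in control cells (adjusted p = 0.032), and the fit of only the groups compared gave 1 with IMP1088 in control cells. Leaving out 1 library gave 1 to 3 members with IMP1088 and with DDD86481 in senescent cells, 1 to 2 with each in control cells, and 1 to 3 in the IMP1088 interaction. The cause was not tested. The call of IL33 for IMP1088 in senescent cells was lost with DESeq2 size factors (adjusted p = 0.0517) and upper quartile scaling (adjusted p = 0.0505), and that for DDD86481 in senescent cells was gained without a filter (adjusted p = 0.0434) and with only the groups compared (adjusted p = 0.0109).

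Reversals concerned values near 0 that passed no threshold. For IMP1088 in senescent cells IL1A was at -0.007 with DESeq2 size factors, -0.006 with DESeq2 and -0.003 without a filter, and IL1R1 was at 0.015 with only the groups compared. For DDD86481 in senescent cells IL1A was at 0.014 with only the groups compared. With 1 library left out, IL1A ran from -0.061 to 0.089 and IL1R1 from -0.11 to 0.13 with IMP1088 in senescent cells, and from -0.16 to 0.076 and from -0.20 to 0.034 with DDD86481. IL1RAP ran from -0.026 to 0.28 with DDD86481 in control cells, and IL33 from -0.59 to 0.34 in the DDD86481 interaction.

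With the replicate number as a block, the members past the threshold numbered 6, 4, 3, 2, 1, 2 and 3 in the order of the comparisons, as without it, and no call of a member changed. IL33 in the DDD86481 interaction was at -0.002 under the block. Over all genes the block moved the calls for senescence from 9827 to 9913, and each of the 6 libraries correlated best with its own number there, a hint from the data only. In control cells it moved them from 4829 to 5003 for IMP1088, where 5 of 6 libraries did so, and from 5242 to 5412 for DDD86481. In senescent cells it moved them from 6374 to 6510 for IMP1088 and from 6189 to 6259 for DDD86481. For senescence, the all-gene median lay -0.155 from its TMM value under upper quartile scaling. The 4 ratios kept their direction with a pseudocount of 0.5 counts and with any library left out.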
